A study of Triticum aestivum and Triticum urartu and Aegilops speltoides with 12 samples.

Results

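Transcript levels in 10-day-old seedlings of rye (Secale cereale) were set against those of Aegilops tauschii, the wild goat grass that gave bread wheat its D genome. The comparison was chosen by array title and used 4 of the 12 arrays of the series, 2 of rye and 2 of Ae. tauschii. Features were split by the species prefix of their ID, which was taken as the species whose expressed sequences the probes were designed from. The other 8 arrays held Triticum urartu (A genome donor), Aegilops speltoides (labelled as the B genome progenitor), a hexaploid wheat and a hexaploid 2BS.2RL wheat-rye translocation line, with 2 arrays each. They entered the shared estimate of the spread and are described below only where they bear on rye and Ae. tauschii. Each array read total RNA pooled from 2 complete seedlings, roots and leaves together, at the third leaf stage, and the labels call the arrays of a plant biological replicates. The labels name no treatment and no accession or cultivar. Levels in leaf and root cannot be told apart in such samples, nor can fewer cells of a type from less RNA per cell.

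Rye is a diploid, outcrossing cereal of the same tribe of grasses as wheat and the goat grasses, but lies outside the group that the wheat progenitors form. Ae. tauschii is a diploid, self-fertilising relative within that group. Mismatches between a long oligonucleotide probe and a foreign transcript weaken hybridization, so that a signal reflects both the amount of transcript in a plant and its fit to the probe. These arrays cannot tell the 2 apart. Since 0 IDs were found in the wheat gene table at hand, each feature is known by its ID alone, and neither genes nor tissue markers could be read. The files used here hold no probe sequences, and none are shown.

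The 56855 plant features comprised 42683 from bread wheat (Triticum aestivum) sequences, 5731 from rye, 5724 from Triticum monococcum (einkorn), 2489 from Ae. speltoides and 228 from Ae. tauschii. The last group joins 114 IDs with the prefix Atauschii and 114 with Asquarrosa, an older name of the same species. Of the Atauschii features, 84 had an Asquarrosa feature within a root mean square of 0.5 (log2) over the 12 arrays, so the 228 are not independent readings. Per the table of raw probes, 56843 features were read by 2 probes and 12 by 1.

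Median levels were 10.63 and 10.64 (log2 intensity) on the rye arrays, against 10.70 on both Ae. tauschii arrays. Replicates correlated across features at r = 0.975 in rye and 0.985 in Ae. tauschii, and rye arrays correlated with Ae. tauschii arrays at 0.837 to 0.853. Replicate arrays differed by a median of 0.27 (log2) in rye and 0.18 in Ae. tauschii. The random control, 1 value per array summarised from 6570 probes with no intended target, was read as background. It lay at 7.34 and 7.47 (log2) in rye and at 6.95 and 7.07 in Ae. tauschii, a difference of 0.40, and 5 of the 7 sGFP controls were also higher in rye, by 0.48 to 0.64, with the other two at 0.10 and -0.66. Among the other plants, Ae. speltoides replicate 2 stood apart: 736 features were at least 2 log2 lower there than in replicate 1, and 127 at least 2 log2 higher. In the remaining 5 plants such features numbered 28 to 252 in either direction. That array enters the comparison of rye with Ae. tauschii through the spread alone.

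Rye and Ae. tauschii differed at 12411 features, 21.8% of those tested (limma, Benjamini-Hochberg adjusted p under 0.05 and a log2 difference of at least 1, which is 2-fold). In rye 5366 features were higher (9.44%) and 7045 lower (12.4%). The lower features also moved further. Their median difference was -1.95 (log2), against 1.59 for the higher ones, and 1756 were lower by at least 3 log2 while 844 were higher by that much. Over all features the median difference was 0.12 and the mean -0.02, which differ in sign, and the median was -0.28 when arrays were shifted to equal random controls. That shift gave 3169 higher and 10588 lower features, and cyclic loess normalization gave 4562 and 7548. The order of higher and lower counts was thus kept, but their size depended on the scaling. Without a minimum difference it was not kept, with 12200 higher and 10911 lower.

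**Figure D1:**
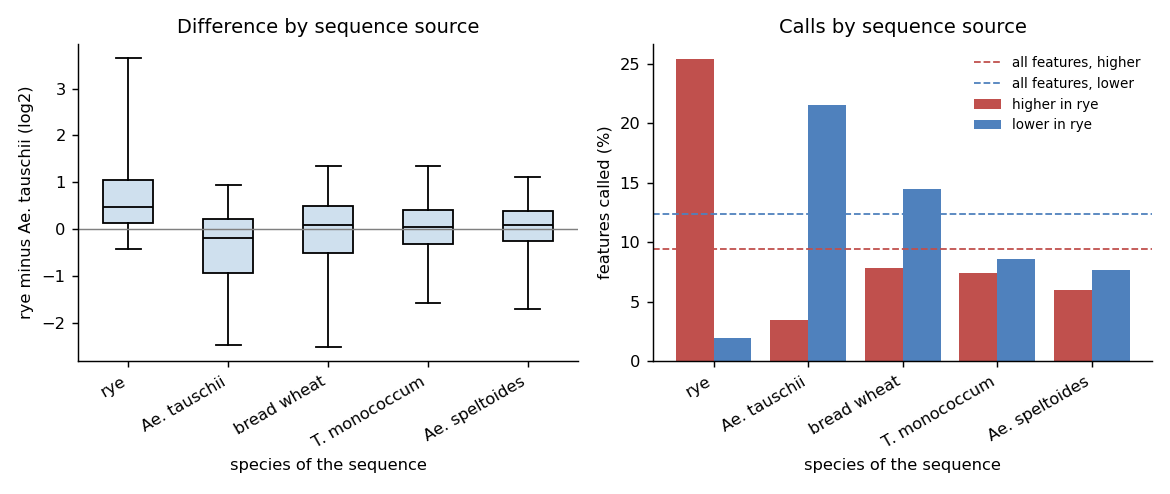
Left, difference between rye and Ae. tauschii (log2) for features grouped by the species of their sequence, with the median, quartiles and 5th to 95th percentiles. Right, percentage of features called higher (red) or lower (blue) in rye, with dashed lines at 9.44% and 12.4% for all features. Features from rye sequences were called higher in 25.4% of cases, and those from Ae. tauschii sequences lower in 21.5%.

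Features built from rye sequences were mostly brighter in rye. Of 5731, 1453 were higher in rye and 112 lower, that is 25.4% and 1.95%, beside 9.44% and 12.4% over all features. Their median difference was 0.48 (log2, quartiles 0.13 and 1.05), and 83.1% of them lay above 0. That median is close in size to the 0.40 of the random control, and was 0.08 after the shift to equal random controls, where 1046 of these features were higher in rye and 195 lower. It lay 0.36 above the median of all features as deposited, a gap that shifting whole arrays cannot alter, and 0.39 above it with cyclic loess. The median level of this group was 12.20 and 12.18 (log2 intensity) on the rye arrays, against 11.49 and 11.56 on the Ae. tauschii arrays. No array of another plant came near the rye values: the medians were 11.42 on both T. urartu arrays, 11.58 and 11.53 in Ae. speltoides, 11.47 on both wheat arrays, and 11.43 and 11.45 in the translocation line. The arrays labelled as that line, whose name denotes a rye chromosome arm, were not above those labelled wheat. A median over all 5731 features would hardly move if only features of that arm rose. It therefore cannot test the label, and the labels are kept as deposited. Ae. tauschii thus sat among the other wheat relatives on these features, and the groups of rye and Ae. tauschii arrays did not overlap. The calls were large: 407 rye-sequence features were higher in rye by at least 3 log2 and 126 by at least 5. Among the other plants, the 1453 higher features had median levels of 9.71 in T. urartu, 10.05 in Ae. speltoides, 9.76 in wheat and 9.60 in the translocation line, against 11.86 in rye and 9.46 in Ae. tauschii.

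**Figure D2:**
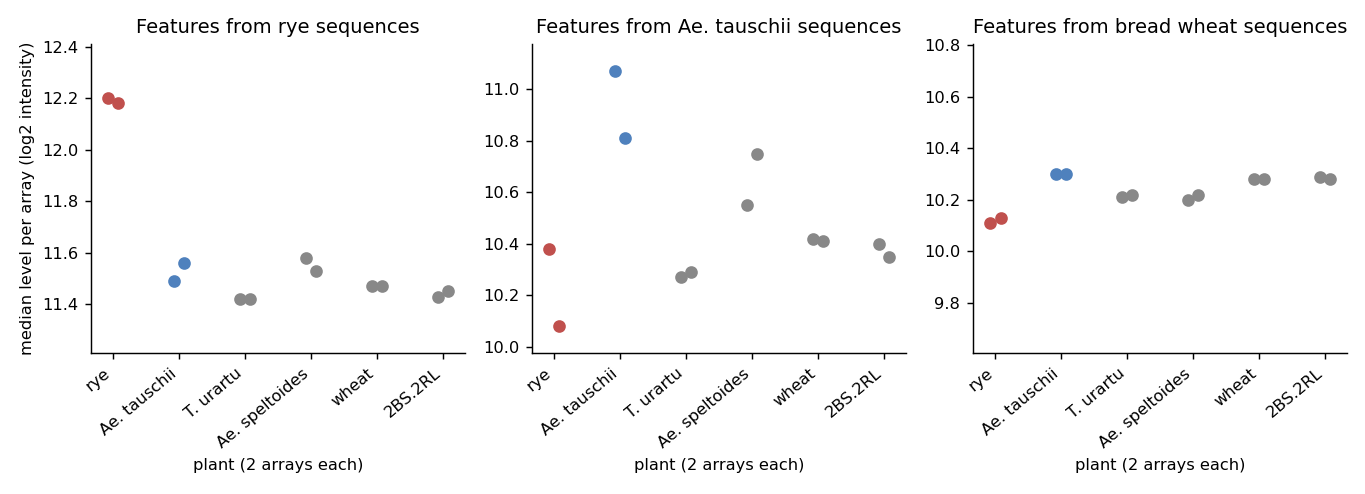
Median level (log2 intensity) of features from rye, Ae. tauschii and bread wheat sequences on each of the 12 arrays, with rye in red, Ae. tauschii in blue and other plants in grey; each panel spans 1.2 log2 units and does not start at 0. Rye-sequence features had medians of 12.20 and 12.18 in rye and 11.58 or less on every other array, and Ae. tauschii-sequence features were highest on the Ae. tauschii arrays, at 11.07 and 10.81.

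The rye-sequence feature with the largest difference, Scereale_ESTC003820, read 13.46 and 13.29 (log2) in rye, against 4.15 and 4.75 in Ae. tauschii. It was below the random control in Ae. tauschii, so that the fold is a lower bound taken against that control: at least 82.4-fold higher in rye (adjusted p = 4.65e-08). It was at 4.15 to 5.56 on all arrays other than those of rye, in the translocation line too (4.46 and 4.68). Scereale_ESTC005536 read 12.91 and 12.74 in rye, against 4.81 and 4.41 in Ae. tauschii, at least 56.3-fold higher (adjusted p = 4.65e-08). Unlike the previous feature it was above the random control in both hexaploids, at 6.96 and 7.20 in wheat and 7.23 and 7.03 in the translocation line. In T. urartu it read 4.65 and 4.97.

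The 112 rye-sequence features that were lower in rye than in Ae. tauschii ran against the source of their probes. Their median difference was -2.39 (log2). They were bright in most plants, with median levels of 9.14 in rye, against 11.86 in Ae. tauschii, 11.53 in T. urartu, and 11.55 in both wheat and the translocation line, but 10.47 in Ae. speltoides. That last value averages 2 arrays that disagreed, with replicate 2 at least 2 log2 lower than replicate 1 on 56 of the 112. Scereale_ESTC001408 read 5.22 and 4.94 in rye, below the random control, against 11.52 and 11.62 in Ae. tauschii, at least 17.9-fold lower in rye (adjusted p = 0.00806). Scereale_ESTC000519 read 5.85 and 6.18 in rye, against 12.37 and 12.33 in Ae. tauschii, at least 30.7-fold lower (adjusted p = 0.0061). Both were at 11.27 or more on each array of every other plant except Ae. speltoides replicate 2, where they were 5.85 and 6.77 while replicate 1 read 12.17 and 12.63. Without that array the fit gave adjusted p-values of 2.91e-07 and 1.44e-07. Without rye replicate 2 or Ae. tauschii replicate 1 the 112 became 72 and 71, with 1 array fewer in the fit.

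Features from Ae. tauschii sequences showed the reverse direction, in a much smaller group. Of 228, 49 were lower in rye (21.5%) and 8 higher (3.51%), beside 12.4% and 9.44% over all features. The median difference was -0.20 (log2, quartiles -0.95 and 0.21), and -0.31 relative to all features. It was -0.36 without rye replicate 1 and -0.59 after the shift to equal random controls. Median levels were 10.38 and 10.08 on the rye arrays, against 11.07 and 10.81 on the Ae. tauschii arrays, with no overlap. The other plants lay between 10.27 and 10.75, so that the Ae. tauschii arrays were the highest of the 12 and rye replicate 2 the lowest. Wheat, which carries a D genome, was at 10.42 and 10.41. The 49 lower features had a median of 8.72 in rye, against 11.31 in Ae. tauschii and 10.40 in wheat, and both hexaploids were above the random control on both arrays for all 49.

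Asquarrosa_ESTC000108 read 8.32 and 8.22 in rye, against 13.47 and 13.48 in Ae. tauschii, a difference of -5.21 ± 0.24 (log2, SE, n = 2 each, limma adjusted p = 4.8e-07). It was also high in wheat (12.77 and 12.62), the translocation line (13.01 and 13.15) and T. urartu (11.95 and 11.71). In Ae. speltoides it was low (7.92 and 8.75). Atauschii_ESTC000097 read 6.64 and 7.20 in rye, below the random control, against 11.87 and 11.95 in Ae. tauschii, at least 22.7-fold lower in rye (adjusted p = 6.51e-07). It was between 10.66 and 12.12 on the arrays of all other plants, so that rye alone was low. In the other direction, Atauschii_ESTC000032 read 13.09 and 13.07 in rye, against 4.96 and 4.73 in Ae. tauschii, at least 67.2-fold higher in rye (adjusted p = 4.65e-08). Asquarrosa_ESTC000031 gave 13.00 on both rye arrays, against 6.94 and 5.74 in Ae. tauschii, at least 63.5-fold higher (adjusted p = 4.65e-06). Their IDs carry 2 names of Ae. tauschii, so they may not be independent readings. Both features lay below the random control in that plant. Both also split the other plants alike: they were high in Ae. speltoides (10.42 and 10.19, and 10.51 and 10.23) and wheat (10.51 and 10.45, and 10.37 and 10.53), and low in the translocation line (5.53 on both arrays, and 5.54 and 6.14) and T. urartu (4.36 to 7.09 over both features). Of the other 6 features of this group that were higher in rye, the largest difference was 2.06.

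Bread wheat sequences make up 75.1% of the features and set the direction of the whole. Of 42683, 3329 were higher in rye and 6201 lower, that is 7.80% and 14.5%. The median difference was 0.08 (log2), and turned to -0.01 with cyclic loess and -0.32 after the shift to equal random controls, so no direction is given for the group as a whole. The calls were mostly lower in rye under all of these scalings, with 2662 higher and 6660 lower by cyclic loess and 1793 and 9141 after the shift. Large differences were more one-sided, with 369 features higher and 1534 lower by at least 3 log2. The 6201 lower features had a median level of 8.65 in rye, against 11.12 in Ae. tauschii, and the other plants lay between, at 10.10 in T. urartu, 9.82 in Ae. speltoides, 10.56 in wheat and 10.57 in the translocation line. The 3329 higher features ran the other way, with 10.16 in rye, against 8.27 in Ae. tauschii, 9.35 in T. urartu, 9.29 in Ae. speltoides, 9.57 in wheat and 9.58 in the translocation line. In both sets the plants chosen for the difference were the extremes, and the medians of the remaining plants lay between them. Choosing features by that difference favours such an order but does not require it.

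Of the bread wheat features, the 2 with the largest differences in each direction are given. Taestivum_ESTC033205 read 4.15 and 3.71 in rye, against 12.23 and 12.07 in Ae. tauschii (at least 26.8-fold lower in rye, adjusted p = 4.76e-08). Taestivum_ESTC049630 read 4.41 and 3.96 in rye, against 12.49 and 12.17 in Ae. tauschii (at least 30.3-fold lower, adjusted p = 4.62e-08). Rye alone was low on both, with 10.89 to 11.74 on the arrays of the other 4 plants. Taestivum_ESTC049553 read 13.29 and 12.82 in rye, against 4.20 and 4.24 in Ae. tauschii (at least 66.1-fold higher, adjusted p = 4.65e-08). Here Ae. tauschii alone was low, with 13.42 and 13.37 in T. urartu, 13.52 and 13.14 in Ae. speltoides, and 12.52 and 12.37 in wheat. Taestivum_ESTC018628 read 12.00 and 11.53 in rye, against 4.19 on both Ae. tauschii arrays (at least 27.0-fold higher, adjusted p = 1.28e-07). It was graded across the others, with 10.04 and 9.79 in wheat, 8.72 and 7.99 in T. urartu, and 4.81 and 5.20 in Ae. speltoides.

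Features from the other two sources, which belong to neither plant, were closer to balance. T. monococcum sequences gave 426 higher and 492 lower of 5724 (7.44% and 8.60%), with a median difference of 0.05. Ae. speltoides sequences gave 150 higher and 191 lower of 2489 (6.03% and 7.67%), with a median of 0.08. Both medians turned negative after the shift to equal random controls (-0.34 and -0.32), where the calls became 256 higher and 865 lower, and 70 and 318. With equal array medians the order for T. monococcum turned, with 482 higher and 460 lower. Both groups had fewer calls in all, 16.0% and 13.7%, than bread wheat sequences at 22.3% and rye sequences at 27.3%. These shares were not matched for brightness. The order against bread wheat was not kept among dim features, as given below.

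The size of the difference varied with how bright a feature was in the other plants. Features were binned into 4 equal bins by their mean level on the 8 arrays of those plants. These arrays took no part in the difference, but the bins may not be independent of it. Wheat carries a D genome and none of these arrays is of rye, so the bin level may follow Ae. tauschii more closely than rye. How much of the trend comes from the binning was not tested. From the dimmest to the brightest bin the median difference over all features was 0.26, 0.22, 0.09 and -0.01 (log2). For features from rye sequences it was 1.67, 0.74, 0.51 and 0.25, above the value for all features in every bin. In the dimmest bin, below 8.81, 521 of 880 rye-sequence features were higher in rye and 13 lower, against 1271 higher and 1573 lower of 12513 from bread wheat sequences. Over all features of that bin 13.6% were higher and 11.8% lower. For T. monococcum sequences the shares there were 18.5% and 10.4%, and for Ae. speltoides sequences 16.0% and 10.7%. Bread wheat sequences had 10.2% and 12.6% there, so these sources did not have fewer calls than bread wheat in that bin. They did in the brightest bin, with 2.07% and 5.67%, and 1.67% and 4.43%, against 2.49% and 10.9%. In the brightest bin, above 11.94, 164 of 2228 rye-sequence features were higher and 34 lower (7.36% and 1.53%, beside 3.10% and 7.80% of all features there). Features from Ae. tauschii sequences had their most negative median, -0.87, in the bin from 8.81 to 10.58, where 18 of 48 were lower in rye and 1 higher (37.5% and 2.08%, beside 16.1% and 12.8% of all features there).

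**Figure D3:**
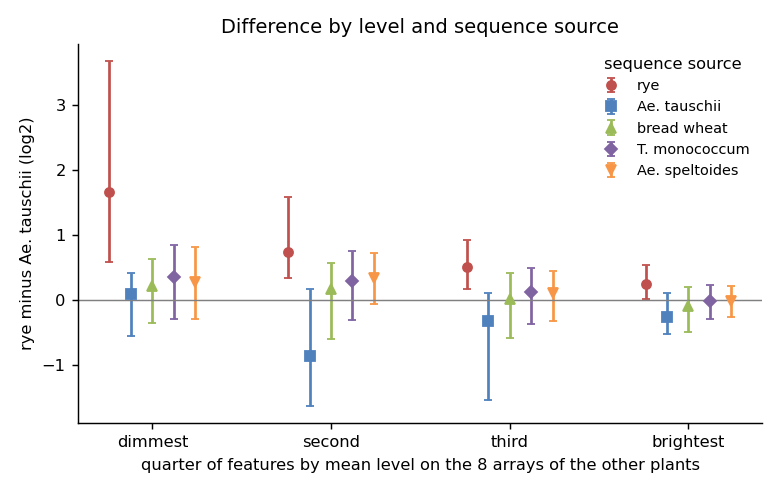
Difference between rye and Ae. tauschii (log2, median and quartiles) for features of each sequence source in 4 bins of mean level on the 8 arrays of the other plants. The rye-sequence median is 1.67 in the dimmest bin and 0.25 in the brightest, and lies above the other sources in all 4.

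In many differences at least 1 plant was at background. Of the 7045 features lower in rye, 1619 (23.0%) lay at or below the random control on both rye arrays, with a median level of 6.06 in rye, against 9.17 in Ae. tauschii. Of the 5366 higher features, 1172 (21.8%) lay there on both Ae. tauschii arrays, with 8.15 in rye, against 5.73 in Ae. tauschii. The plant with the higher level could be at background too. Rye was so on both arrays for 243 of the 5366, and Ae. tauschii for 104 of the 7045. Single arrays had 13.2% and 14.2% of all features at background in rye, and 10.9% and 11.6% in Ae. tauschii. Called features are chosen to be low in 1 of these plants, so a larger share among them follows in part from the choice. The other plants read these sets differently. Of the 1619 at background in rye, wheat was above its random control on both arrays for 1362, the translocation line for 1376, T. urartu for 905 and Ae. speltoides for 630, and 460 (28.4%) were above in all 4. The counts of 630 and 460 rest in part on Ae. speltoides replicate 2. Of the 1619, 116 were at least 2 log2 lower there than in replicate 1. Of the 1172 at background in Ae. tauschii, wheat was above for 648, the translocation line for 654, T. urartu for 425 and Ae. speltoides for 371, and 263 (22.4%) were at background in all 4. Of all features, 8.37% and 8.07% were at background on the wheat arrays, and 7.87% and 8.02% on those of the translocation line. The shares were 11.1% and 11.3% in T. urartu, and 13.3% and 12.8% in Ae. speltoides. The random control was lower in the hexaploids (6.47 to 6.56) than in the diploids (6.95 to 7.47), which makes it easier for a hexaploid array to lie above it.

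By source, the 269 rye-sequence features at background in Ae. tauschii had a median of 10.02 in rye, against 5.52 in Ae. tauschii. Of these, 125 (46.5%) were at background in all 4 other plants and 16 were above in all 4. Of the 804 bread wheat features at background in Ae. tauschii, 127 (15.8%) were at background in all 4 others. Of the 1476 bread wheat features at background in rye, 95 (6.44%) were. Another 253 of those 1476 were above in both hexaploids and at background in T. urartu and Ae. speltoides. Of the 804, 118 had that profile. Over all sources it was held by 261 of the 1619 and 132 of the 1172. These sets differ in size, and the share of all features with that profile was not counted, so the counts are not compared.

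**Figure D4:**
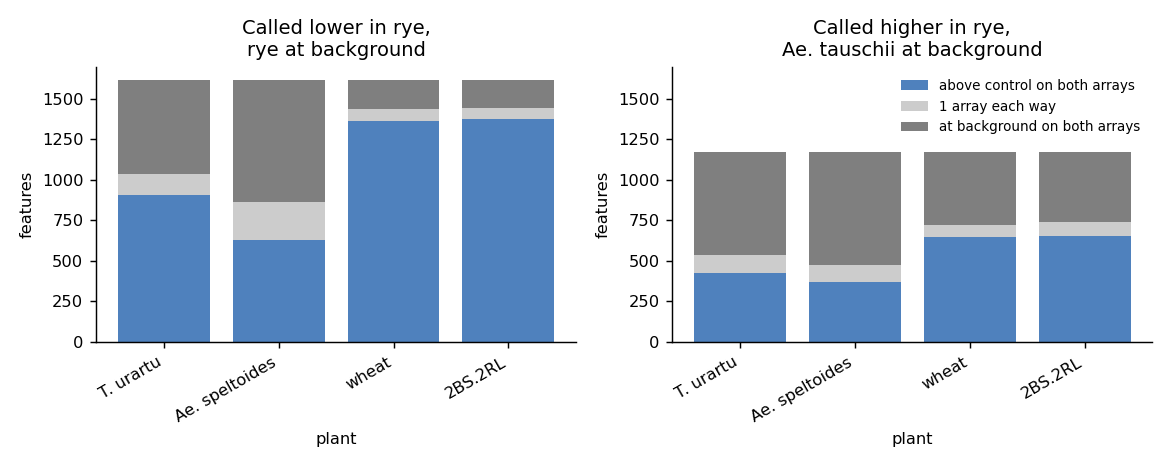
Number of features above the random control on both arrays (blue), on 1 array (light grey) or on neither (dark grey) in the 4 other plants. Left, the 1619 features lower in rye with rye at background, of which wheat was above for 1362; right, the 1172 features higher in rye with Ae. tauschii at background, of which wheat was above for 648. Of the 1619, 116 were at least 2 log2 lower in Ae. speltoides replicate 2 than in replicate 1.

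Detection in the other two diploids, which rested on arrays outside the comparison, gave a further split. Of 288 rye-sequence features at background in both T. urartu and Ae. speltoides, rye was above its control on both arrays for 137 and Ae. tauschii for 18, and 174 were higher in rye and 0 lower (60.4% higher, beside 12.1% higher and 11.5% lower of all 4271 features of that class). Of 3804 bread wheat features at background in both, rye was above for 212 and Ae. tauschii for 484, with 314 higher in rye and 471 lower. Where both diploids were above background, 1079 of 5141 rye-sequence features were higher in rye and 90 lower, and 2431 of 34198 bread wheat features were higher and 4626 lower. Over all 47165 features of that class 8.46% were higher and 11.3% lower.

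The features on which the 2 Ae. speltoides arrays disagreed turned out to be mostly features on which rye and Ae. tauschii differed. The 736 that were at least 2 log2 lower in Ae. speltoides replicate 2 had a median level of 8.39 and 8.31 in rye, against 11.43 and 11.40 in Ae. tauschii. In Ae. speltoides the medians were 11.59 and 8.14, and in T. urartu, wheat and the translocation line 11.19 to 11.39. Both rye arrays and 1 Ae. speltoides array were thus low, and the other 9 arrays high. Of the 736, 500 were lower in rye and 11 higher, 67.9% lower, against 11.7% of all other features. The rye mean lay within 1 log2 of Ae. speltoides replicate 2 for 579 of the 736, and the Ae. tauschii mean for 86. The rye mean lay within 1 log2 of replicate 1 for 38, and the Ae. tauschii mean for 585. Across the 736 features rye correlated with Ae. speltoides replicate 2 at r = 0.84 and with replicate 1 at 0.66. For Ae. tauschii these values were 0.71 and 0.89. All are a description over features of shared arrays. In the 127 features that were higher in replicate 2, 10 were higher in rye and 29 lower (22.8% lower, beside 12.4% of all features). The set was chosen by the Ae. speltoides arrays, after its pattern was seen.

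These split features came from every sequence source. They made up 1.57% of rye-sequence features, 1.14% of bread wheat, 1.48% of T. monococcum and 2.85% of Ae. speltoides features, and 2 of the 228 from Ae. tauschii. They held 56 of the 112 rye-sequence features lower in rye (50.0%), but 327 of 6201 bread wheat features lower in rye (5.27%). Left out of the test, they reduced the 112 to 56, a fall that follows from their removal. The 1453 higher rye-sequence features became 1452. In T. urartu, 146 features were at least 2 log2 lower in replicate 2, of which 9 were higher in rye than in Ae. tauschii and 10 lower (6.85% lower, beside 12.4% of all features). What set the second Ae. speltoides array apart was not tested.

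**Figure D5:**
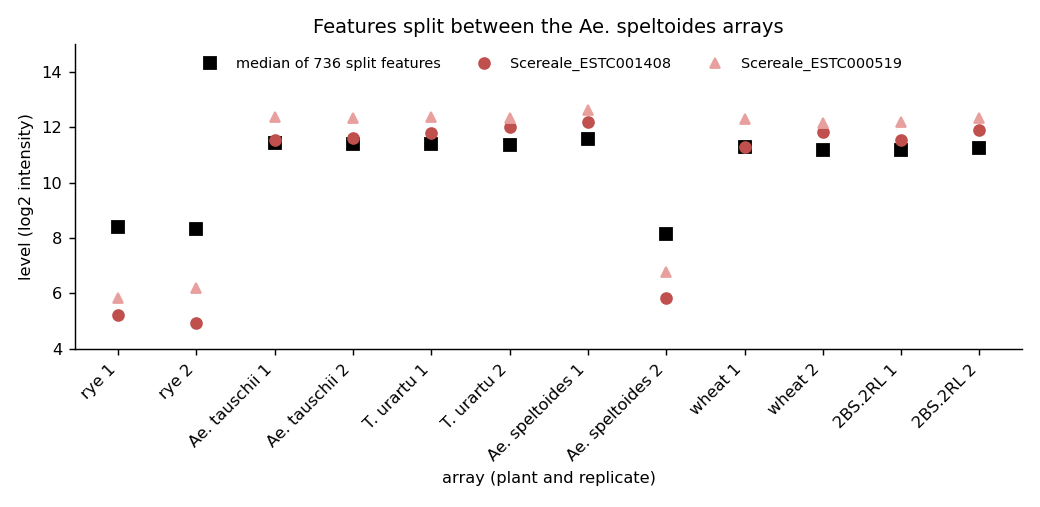
Level (log2 intensity) on each of the 12 arrays for the median of the 736 features at least 2 log2 lower in Ae. speltoides replicate 2 than in replicate 1 (squares) and for the rye-sequence features Scereale_ESTC001408 and Scereale_ESTC000519. The medians are 8.39 and 8.31 in rye and 8.14 in Ae. speltoides replicate 2, and 11.19 or more on the other 9 arrays.

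The other comparisons of rye with a diploid share its arrays and are given side by side. In all, 23.2% of features differed between rye and T. urartu and 18.2% between rye and Ae. speltoides, beside 21.8% for Ae. tauschii. The Ae. speltoides mean includes replicate 2, which lay within 1 log2 of the rye mean on 579 of the 736 split features. The comparisons with Ae. speltoides, that of Ae. tauschii too, were not repeated without that array. Rye-sequence features higher in rye numbered 1453 when set against Ae. tauschii, 1600 with T. urartu and 1326 with Ae. speltoides (25.4%, 27.9% and 23.1%, beside 9.44%, 10.6% and 8.70% of all features). Features from Ae. tauschii sequences were lower in rye in 49, 36 and 33 cases (21.5%, 15.8% and 14.5%, beside 12.4%, 12.6% and 9.47%). In the same order, T. monococcum features were lower in rye in 492, 917 and 425 cases (8.60%, 16.0% and 7.42%). Ae. speltoides features were lower in 191, 171 and 278 cases (7.67%, 6.87% and 11.2%). Each of these sources thus had its largest lower count against the plant named by the source or, for T. monococcum, against its close relative T. urartu. Ae. tauschii differed from T. urartu at 18.4% of all features and from Ae. speltoides at 17%, comparisons that share the Ae. tauschii arrays. There, rye-sequence features gave 334 higher and 275 lower in Ae. tauschii than in T. urartu (5.83% and 4.80%, beside 9.39% and 9% of all features), and 291 higher and 378 lower than in Ae. speltoides (5.08% and 6.60%, beside 9.48% and 7.53%). Differences between these comparisons were not tested.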

How the data were processed

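The deposited table holds linear intensity values of 1-colour NimbleGen arrays. The submitters' processing notes name RMA as the tool by which the authors made them, with no version or settings. Since RMA usually equalises the distribution of arrays, a plant-wide change in transcript amount would not show. The raw probe table has 12 value columns whose codes match no label, and it was used only to count probes.

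Values were taken as log2 without offset or filter, 8 control features were left out, and limma 3.58.1 (R 4.3.3) fitted a mean for each plant over the 12 arrays together (6 residual and 2.97 prior degrees of freedom). The standard error of the difference had a median of 0.20 (log2). The number of arrays limits the precision. Adjusted p-values are limma's, over all 56855 features. On simulated data with the measured spreads, the test found 60 of 100 features given a shift of 1.5 log2 and 95 of 100 given 3. Of its 161 calls, 6 were false. Only these features were shifted, far fewer than differed in the data. The adjusted p depends on the share that differs, so these values do not give the power of the real comparison.

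Features named were, in rye, Ae. tauschii and bread wheat sequences, the 2 largest differences in each direction among called features whose arrays did not overlap. The features, groups and tests were chosen with earlier results of these data known. The set split between the Ae. speltoides arrays, and the fits without it or without that array, were chosen after the data were seen. Nothing in the labels pairs arrays by replicate number, and slide could not be tested as a batch, because the labels tie no sample to a slide. Alternatives were other scalings, arrays, filters and thresholds, and leaving out each rye and Ae. tauschii array.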

Additional observations from a re-analysis of the deposited data

Results flagged for a closer look

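Of the 7 sGFP control features, which took no part in the comparison, 4 lay above the random control on all 12 arrays. Averaged over the arrays they were above it by 4.20, 1.20, 2.26 and 2.31 (log2) for sGFP_Barcds000001, sGFP_Barcds000002, sGFP_Barcds000003 and sGFP_Barcds000004. The first was above it by 4.09 in rye and 4.01 in Ae. tauschii, the second by 1.27 and 1.16, the third by 2.43 and 2.19, and the fourth by 2.32 and 2.21. The labels do not say what these controls read.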

How the results depend on the processing

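Of 190 comparisons of a count or median with an alternative other than leaving out a rye or Ae. tauschii array, 134 stayed (counts within 1.5 times, medians within the spread over array pairs) and 56 moved. The named features kept their direction and side of the test in every alternative run for them. In the following, pairs are higher and lower counts in rye and medians are log2. Shifting arrays to equal random controls gave 3169 and 10588 calls, 195 lower rye-sequence, 4 higher Ae. tauschii-sequence, 1793 higher bread wheat, 256 and 865 T. monococcum and 70 and 318 Ae. speltoides features, and medians of -0.28 over all, 0.08, -0.59, -0.32, -0.34 and -0.32 for rye, Ae. tauschii, bread wheat, T. monococcum and Ae. speltoides sequences. Equal array medians gave medians of 0.18 over all, 0.54 for rye, 0.14 for bread wheat, 0.12 for T. monococcum and 0.14 for Ae. speltoides sequences. Cyclic loess gave 0.05 over all and -0.01 for bread wheat. The share of higher features among all calls was 43.2% as deposited, 37.7% with cyclic loess, 47.3% with equal medians and 23.0% with equal controls.

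Without the dimmest 25% of features, which leaves fewer to test, 3468 were higher, with 3 from Ae. tauschii and 2003 from bread wheat sequences, and medians of 0.08 over all, 0.41 for rye, -0.33 for Ae. tauschii and 0.02 for bread wheat. At a log2 of at least 2, 5222 features were called (1817 and 3405), with 693 and 65 from rye, 3 and 19 from Ae. tauschii, 952 and 3013 from bread wheat, 134 and 216 from T. monococcum and 35 and 92 from Ae. speltoides. With no minimum, 23111 were called (12200 and 10911), with 2600 and 194 from rye, 15 higher from Ae. tauschii, 8032 higher from bread wheat, 1111 and 999 from T. monococcum and 442 and 362 from Ae. speltoides. Both follow from the threshold. Without the features split between the Ae. speltoides arrays, 56 rye-sequence features were lower, which follows from the removal. Without Ae. speltoides replicate 2, 135 rye-sequence features were lower. With 1 log2 added to the random control, 2766 features were at background in rye and 1959 in Ae. tauschii.

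Leaving out each rye and Ae. tauschii array gave 11112 to 12801 calls, 71 to 102 lower rye-sequence features, 6 to 11 higher and 42 to 55 lower Ae. tauschii-sequence features, and medians of 0.09 to 0.12 over all, 0.44 to 0.51 for rye, -0.36 to -0.14 for Ae. tauschii and 0.05 to 0.08 for bread wheat. The lone array was assumed to vary like the other groups. Deviations of same-numbered rye and Ae. tauschii arrays correlated at 0.214 across features. With the replicate block 12472 features were called (5400 and 7072), 12346 of them among the 12411 and in the same direction, and no count by source moved. Using the rye and Ae. tauschii arrays alone gave 12155 calls and the diploid arrays alone 11870. The number of arrays limits the precision, and dim features near the random control have only bounds.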
